A study of Homo sapiens with 6 samples.

Results

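The nuclear-encoded subunits of the mitochondrial respiratory chain and ATP synthase were followed in xenografts of HT-29, an established line of human colorectal adenocarcinoma cells. Members were the genes whose symbols begin with NDUFA, NDUFB, NDUFC, NDUFS or NDUFV (complex I), SDHA to SDHD (complex II), UQCR or CYC1 (complex III), COX4 to COX8 (complex IV) or ATP5 (complex V), without assembly factors and pseudogenes. They numbered 80 of 19775 genes, with 154 of 54675 probe sets, and each gene was read from the one of its probe sets that was brightest on average over 6 arrays. Of the 80, 33 belong to complex I, 3 to complex II, 7 to complex III, 19 to complex IV and 18 to complex V. NDUFA4 and NDUFA4L2 came in under their older symbols and are given here by their current ones, COXFA4 and COXFA4L2, in complex IV.

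The cells were grown on both sides, in the femoral regions, of Balb/c (nu/nu) mice aged 6 to 8 weeks. The treated pool came from tumours given modulated electro-hyperthermia, an electromagnetic heating, for 30 min on day 18 and taken 4 h later. The opposite pool came from the unheated tumours on the other side of the same treated animals, and the control pool from tumours labelled control. The labels attach the same text on heating and sampling to all samples, control included, so how the control tumours were handled is known here from the word control alone. Each pool was 1 RNA preparation from dissected tumour regions of frozen sections, read on 2 technical arrays, so the spread between animals was not measured and conditions could not be tested against it. The number of animals in a pool is not given in the labels, and all tumours were of 1 cell line in mice without a thymus.

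The respiratory chain passes electrons from NADH (complex I) and succinate (complex II) through complex III and cytochrome c to oxygen at complex IV, and complexes I, III and IV pump protons across the inner mitochondrial membrane. Complex V lets the protons flow back and makes ATP. Most subunits are encoded in the nucleus and imported, while a small core of all complexes except complex II is encoded in mitochondrial DNA. Nuclear respiratory factor 1 (NRF1) and the ETS factor GABP are known regulators of many of these nuclear genes.

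The values are log2 signals after the GCRMA procedure. Differences below are differences of pool means on this scale, so that -1 is a halving of the signal, and the error given is the SD of the 2 arrays of a pool. A member was taken as detected when a pool mean was at or above 5, which held for 73 of 80 members (91.3%) and for 7267 of all 19775 genes (36.7%). Differences were sorted by 2 size rules. The 2-fold rule asked for a difference of at least 1, and the 0.25 rule for at least 0.25 (1.19-fold), each with all 4 array pairs on the same side and both arrays of the higher pool at or above 5. Pools were called not overlapping when all 4 array pairs lay on the same side, whatever the size. Over the detected members the 2 arrays of a pool differed by a median of 0.025 in the treated, 0.026 in the opposite and 0.024 in the control pool, and by at most 0.187 in treated, 0.126 in opposite and 0.151 in control.

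The respiratory chain genes were slightly and broadly lower in the treated pool than in both other pools. No member differed by 2-fold between any pools on the probe set it was read from. Against control the median difference over the 73 detected members was -0.107, a signal 7.15% lower, with quartiles of -0.235 and -0.021, while the median over all 7204 genes detected in that pair was -0.016. Under the 0.25 rule 18 of 73 members were lower (24.7%) and 1 was higher (1.37%), against 15.5% lower and 14.6% higher among all genes. The 18 include COXFA4L2, whose treated mean, 4.92, lay below 5. Pools did not overlap for 53 members on the lower side, COXFA4L2 among them, and 11 on the higher side, where all genes gave 40.5% and 34.7%. The 2-fold rule passed 0 members, and among all genes it passed 0.625% higher and 0.0972% lower. The members are brighter than most genes. Among the 1821 genes at or above 8 the median difference was -0.0005, and over the 59 members at that level it was -0.109.

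The opposite pool allowed a comparison of heated and unheated tumours of the same animals. There the member median was -0.0795, against 0.014 over all 7155 genes. Without overlap 46 members, COXFA4L2 among them, lay lower and 12 higher, where all genes gave 33.2% and 38.6%. Under the 0.25 rule 7 of 73 members were lower (9.59%), a share like the 9.73% of all genes, and 0 were higher against 14.6%. The 2-fold rule passed 0 members and 0.28% of all genes higher and 0.0559% lower.

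Between the opposite and control pools the members did not lean to a side. Their median was -0.0095 and that of all 7182 genes was -0.019. Lower without overlap were 33 members and higher were 25, where all genes gave 42.4% and 34%. Under the 0.25 rule 6 members were lower (8.22%) and 2 higher (2.74%), both smaller shares than the 17.8% and 12.1% of all genes. The 2-fold rule passed 0 members, 0.237% of all genes higher and 0.167% lower. The 3 comparisons share pools, so their values are set side by side and are not separate evidence.

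**Figure D1:**
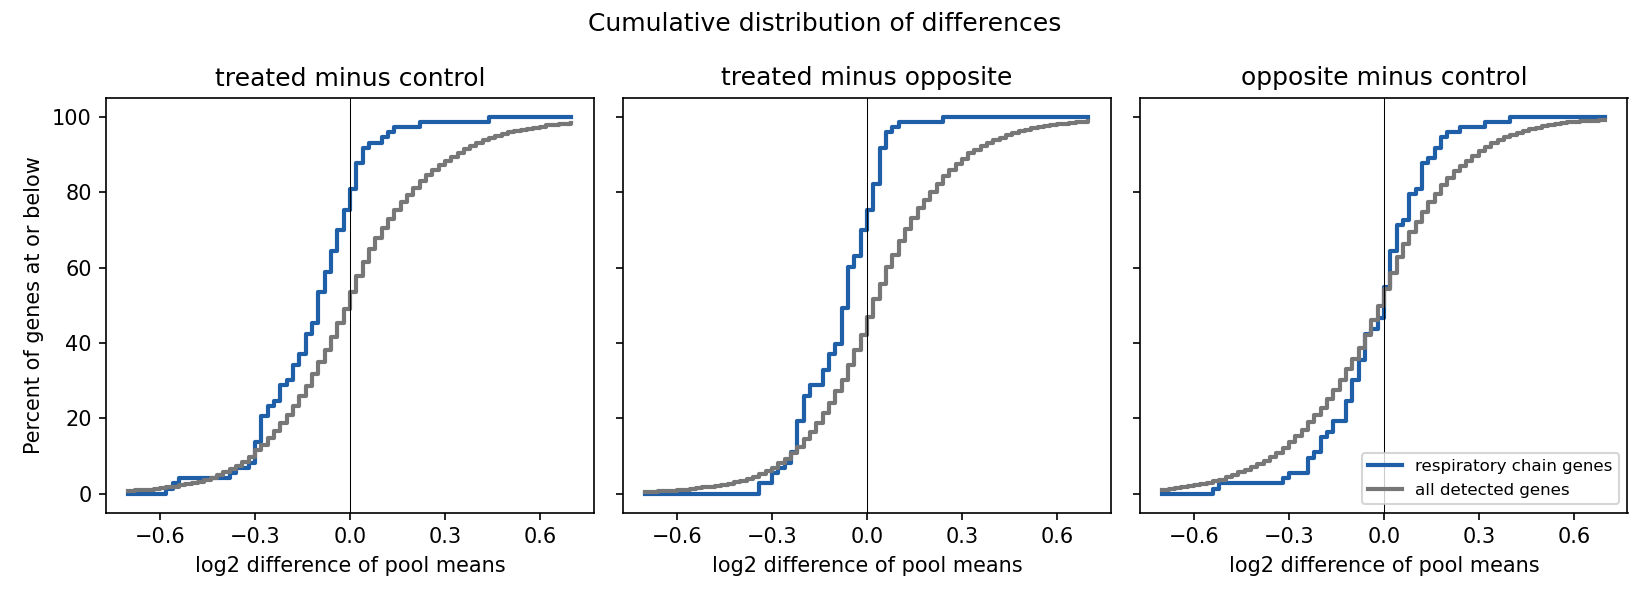
Cumulative percent of genes (vertical axis) at or below each log2 difference of pool means (horizontal axis), for the detected respiratory chain genes (blue) and all detected genes (grey). The blue curve lies left of the grey one over most of its course in both comparisons of the treated pool (medians -0.107 and -0.0795), and is steeper than the grey one around 0 in the opposite minus control comparison.

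Spike-in control RNAs, 40 detected probe sets, bear on the scale. Their median difference was 0.33 for treated minus opposite, 0.11 for treated minus control and -0.18 for opposite minus control. Setting the arrays to equal medians over these probe sets, which is not the same as the median difference, moved every treated minus opposite difference by -0.19 and every opposite minus control difference by 0.18, and the medians of all genes went to -0.18 and 0.16. On that scale 44 members were lower in treated than in opposite (60.3%, against 33.9% of all genes) and 0 higher (4.53% of all genes). For opposite minus control 2 were lower and 16 higher (21.9%, against 6.52% of all genes lower and 31.5% higher), in place of 6 lower and 2 higher. For treated minus control the counts were 18 lower and 1 higher as before, where all genes gave 17% and 13.7%. Relative to the median of all genes on that scale, the member median was -0.092 for treated minus control, -0.090 for treated minus opposite and 0.0073 for opposite minus control.

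By pool order, the treated mean was the lowest of the 3 in 49 of 73 members (67.1%), against 32.8% of all genes. Both treated arrays lay below the other 4 arrays in 38 members (52.1%), against 20.5% of all 7267 genes. The 49 and the 38 include COXFA4L2, whose treated mean lay below 5. Both control arrays lay above the other 4 in 30 members (41.1%, all genes 27%). They lay below the other 4 in 7 members, namely NDUFA5, NDUFA6, NDUFA12, SDHC, SDHD, COXFA4 and ATP5MK (9.59%, all genes 20.9%). The array map of the 73 detected genes shows both patterns, genes lowest in treated and genes highest in control, within each large complex.

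**Figure D2:**
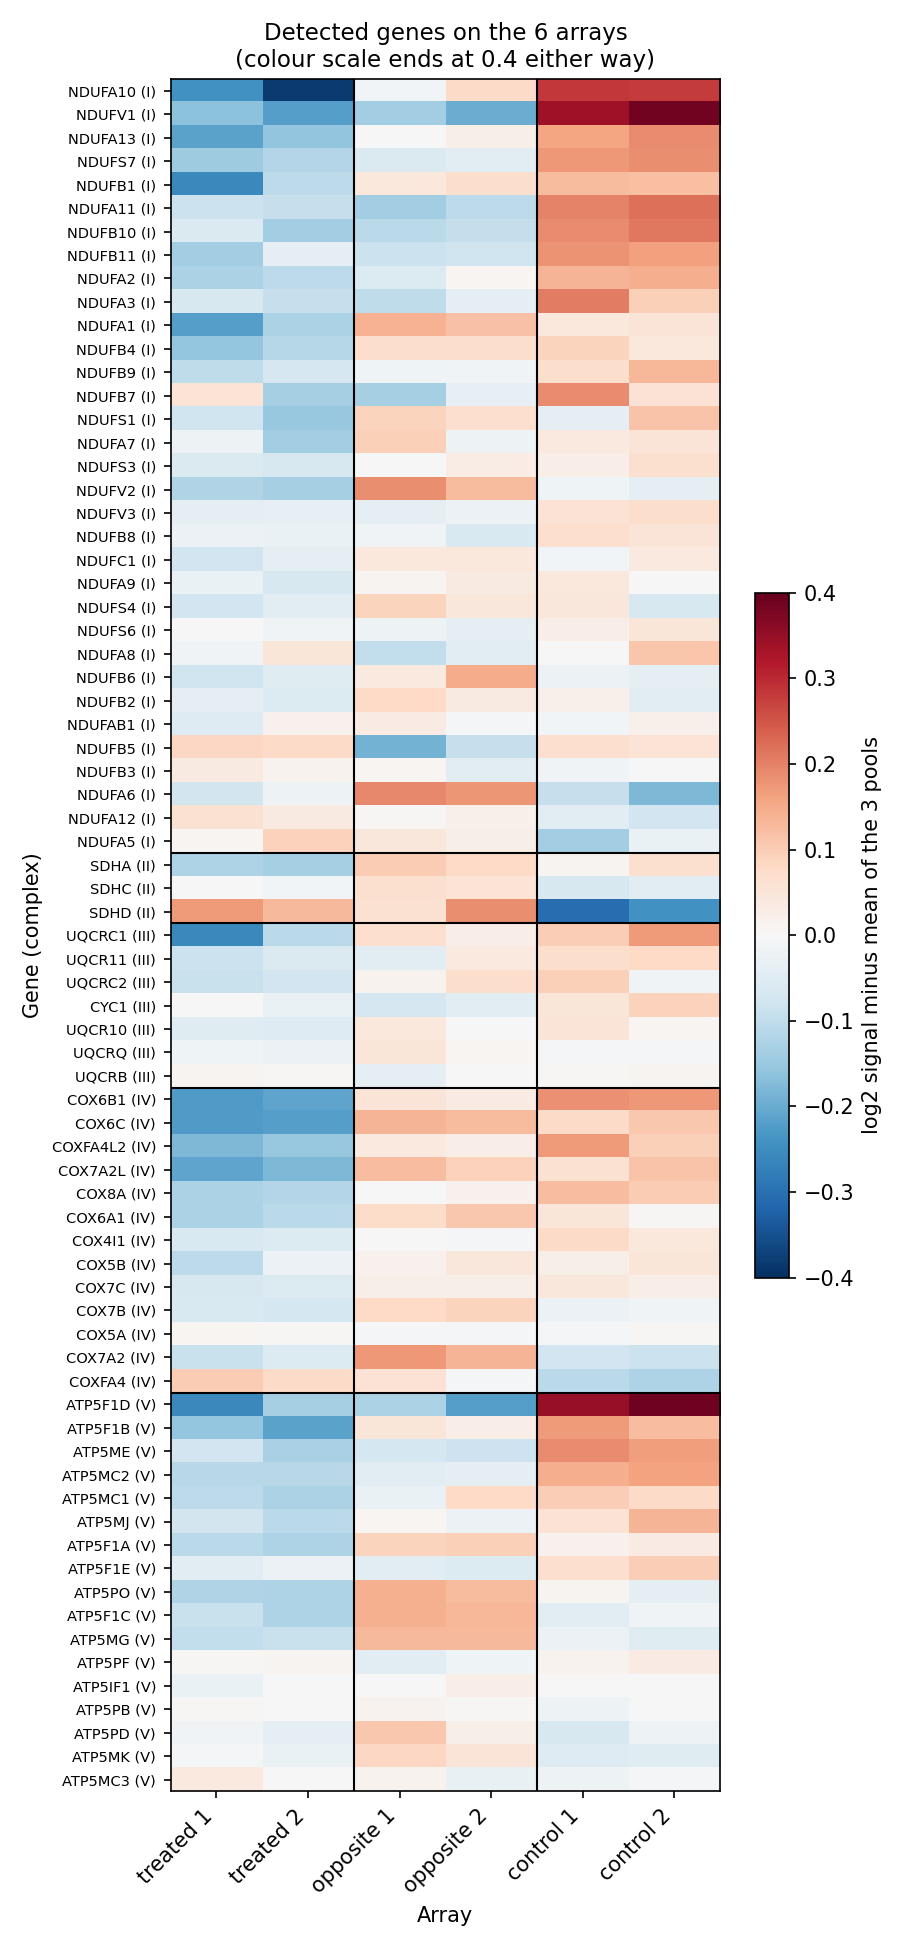
Log2 signal of the 73 detected genes on the 6 arrays, each minus the gene's mean over the 3 pools, with genes in rows by complex (I to V, top to bottom) and sorted by treated minus control within a complex. The treated columns are mostly blue, NDUFV1 and ATP5F1D are low in treated and opposite and high in control, and SDHD is low in control only.

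Promoter sequences are shown for the genes at the ends of this spread. NDUFA10 had the lowest treated minus control difference, SDHD the only one past the 0.25 rule on the higher side, COX6B1 was the lowest of complex IV, and NDUFV1 differed between control and both other pools. Each line gives the 250 bases before the annotated start on the gene's strand (RefSeq, GRCh38.p14), in lower case, with matches to the NRF1 motif GCATGCGC or the ETS motif CCGGAAG on either strand in capitals. They lie at chr2:240025343-240025592 on the minus strand (NDUFA10) and on the plus strand at chr11:112086623-112086872 (SDHD), chr19:35648073-35648322 (COX6B1) and chr11:67606686-67606935 (NDUFV1).
NDUFA10: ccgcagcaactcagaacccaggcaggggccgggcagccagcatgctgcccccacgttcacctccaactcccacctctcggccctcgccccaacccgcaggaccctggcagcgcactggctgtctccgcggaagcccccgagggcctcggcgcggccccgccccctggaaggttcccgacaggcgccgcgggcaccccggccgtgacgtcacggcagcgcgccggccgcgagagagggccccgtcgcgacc
SDHD: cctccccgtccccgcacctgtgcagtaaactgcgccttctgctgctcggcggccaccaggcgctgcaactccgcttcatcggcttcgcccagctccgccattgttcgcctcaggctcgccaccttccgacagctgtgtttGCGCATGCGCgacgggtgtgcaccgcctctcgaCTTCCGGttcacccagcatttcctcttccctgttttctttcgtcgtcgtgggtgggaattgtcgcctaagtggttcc
COX6B1: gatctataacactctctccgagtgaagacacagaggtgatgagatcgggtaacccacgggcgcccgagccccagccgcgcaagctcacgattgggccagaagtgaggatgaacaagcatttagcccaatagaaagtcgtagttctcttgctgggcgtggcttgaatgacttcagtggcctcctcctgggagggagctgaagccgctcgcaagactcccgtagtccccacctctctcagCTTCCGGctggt
NDUFV1: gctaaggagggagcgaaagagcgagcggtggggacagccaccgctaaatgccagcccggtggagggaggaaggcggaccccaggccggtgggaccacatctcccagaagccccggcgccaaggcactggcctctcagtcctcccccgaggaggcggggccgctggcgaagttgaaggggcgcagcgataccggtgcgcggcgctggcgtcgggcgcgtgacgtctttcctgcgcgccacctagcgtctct
In SDHD the first capitals hold 2 overlapping NRF1 matches, 1 on each strand, and the second capitals an ETS match. COX6B1 has an ETS match close to the start, and the windows of NDUFA10 and NDUFV1 hold neither motif.

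Of the 80 members 68 had a promoter in the table of 27305. The NRF1 motif was found in 11 of them (16.2%), against 2.81% of all promoters, and the ETS motif in 15 (22.1%), against 8.82%. The YY1 motif AAGATGGCG was found in 1 (1.47%, all promoters 0.641%), and the heat shock element, alternating GAA and TTC units, in 0 (all promoters 0.439%). Of the 18 members lower in treated than in control 15 were in the table, and 3 of these held the NRF1 motif (NDUFS7, ATP5MC2 and ATP5ME) and 2 the ETS motif (NDUFA13 and COX6B1). These are matches of letters within 250 bases and say nothing of binding.

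Complex I takes electrons from NADH in an arm that stands in the matrix and pumps protons in an arm that lies in the membrane. All 33 members were detected. The median treated minus control difference was -0.107, with 9 members lower (27.3%, all genes 15.5%) and 0 higher (all genes 14.6%) by the 0.25 rule. Without overlap 24 were lower (72.7%, all genes 40.5%) and 5 higher (15.2%, all genes 34.7%). The 9 were NDUFA2, NDUFA10, NDUFA11, NDUFA13, NDUFB1, NDUFB10, NDUFB11, NDUFS7 and NDUFV1. A second detected probe set gave -0.07 in NDUFA11, with treated and control overlapping, and -0.46 in NDUFB10. Against opposite the median was -0.068 with 3 lower (NDUFA1, NDUFA10 and NDUFV2), and opposite minus control it was -0.066 with 4 lower and 1 higher. The shares lower, 9.09% and 12.1%, did not exceed the 9.73% and 17.8% of all genes.

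Among the catalytic core subunits, which carry the flavin and the iron-sulphur clusters, NDUFV1 stood out. NDUFV1, the subunit that binds NADH and FMN, had signals of 9.01 and 8.96 in treated, 9.04 and 8.98 in opposite, and 9.52 and 9.56 in control. Treated and opposite overlapped and both lay below control, with differences of -0.56 and -0.53. Its partner NDUFV2, which holds an iron-sulphur cluster, had 9.05 and 9.04 in treated, 9.36 and 9.30 in opposite, and 9.16 and 9.13 in control. Here opposite was the high pool, with treated minus opposite at -0.28 and treated minus control at -0.10. NDUFS7, the subunit with the last cluster before ubiquinone, had 7.19 and 7.22 in treated, 7.27 and 7.29 in opposite, and 7.51 and 7.52 in control (treated minus control -0.31). NDUFS1, the largest core subunit, had 7.46 and 7.39 in treated, 7.63 and 7.61 in opposite, and 7.50 and 7.65 in control. Its treated arrays were the lowest, at -0.15 against control, and opposite and control overlapped. NDUFS3, a core subunit of the matrix arm, had 6.89 on both treated arrays, 6.95 and 6.98 in opposite, and 6.98 and 7.02 in control (treated minus control -0.11). The 10 genes of the NADH-oxidising module, NDUFV1, NDUFV2, NDUFS1 and accessory subunits, had a median treated minus control difference of -0.100. Of these NDUFV1 and NDUFA2 were lower by the 0.25 rule (20%, all genes 15.5%).

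The largest difference of any member was in an accessory subunit. NDUFA10, a subunit of the membrane arm with the fold of a nucleoside kinase, had 7.98 and 7.84 in treated, 8.21 and 8.30 in opposite, and 8.50 on both control arrays. The means were 7.91 ± 0.10 in treated, 8.25 ± 0.062 in opposite and 8.50 ± 0.00071 in control (SD, n = 2 arrays). The 3 pools were fully apart, with treated minus control at -0.59 (0.662-fold), treated minus opposite at -0.35 and opposite minus control at -0.249, just under the 0.25 rule.

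Other accessory subunits ran in other orders. NDUFA6, a small subunit of the LYR family, had 8.85 and 8.90 in treated, 9.11 and 9.10 in opposite, and 8.83 and 8.74 in control. Opposite was the high pool, 0.32 above control, and treated lay 0.09 above control. NDUFA5, an accessory subunit of the matrix arm, had the highest treated minus control difference of the complex, 0.13, with 7.79 and 7.88 in treated, 7.83 and 7.81 in opposite, and 7.65 and 7.76 in control. NDUFB5, in the membrane arm, had 8.15 on both treated arrays, 7.88 and 7.98 in opposite, and 8.14 and 8.12 in control. Its opposite arrays were low, and treated minus opposite was 0.22, the highest of any member. The 11 NDUFB genes, all accessory subunits of the membrane arm, had a median of -0.16 for treated minus control, -0.0065 for treated minus opposite and -0.098 for opposite minus control. Of these NDUFB1, NDUFB10 and NDUFB11 were lower in treated than in control by the 0.25 rule (27.3%, all genes 15.5%).

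The 3 brightest probe sets of complex I were those of NDUFB9, NDUFB4 and NDUFB8, likewise of the membrane arm. NDUFB9 had 11.06 and 11.09 in treated, 11.14 and 11.15 in opposite, and 11.23 and 11.30 in control (treated minus control -0.19). NDUFB4 had 10.69 and 10.73 in treated, 10.92 and 10.91 in opposite, and 10.93 and 10.89 in control (treated minus control -0.20). NDUFB8 had 10.20 and 10.19 in treated, 10.20 and 10.16 in opposite, and 10.29 and 10.27 in control. For NDUFB9 and NDUFB4 the treated arrays were the lowest, and for NDUFB8 treated and opposite overlapped below control.

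Complex II oxidises succinate and is also an enzyme of the tricarboxylic acid cycle, and none of its subunits is encoded in mitochondrial DNA. Its 3 measured genes differed in direction for treated minus control. Without overlap 1 was lower (33.3%, all genes 40.5%) and 2 higher (66.7%, all genes 34.7%), while for opposite minus control all 3 were higher (100%, all genes 34%). SDHD, the small membrane anchor, had 9.02 and 8.98 in treated, 8.91 and 9.04 in opposite, and 8.54 and 8.61 in control. Treated and opposite overlapped, and both lay above control, by 0.42 (1.34-fold) and 0.40, the highest differences of any member in these comparisons. SDHA, the flavoprotein that oxidises succinate, had 8.50 and 8.49 in treated, 8.72 and 8.70 in opposite, and 8.63 and 8.68 in control. It was lowest in treated, with -0.17 against control and -0.22 against opposite, and opposite lay 0.05 above control. SDHC, the large membrane anchor, had 8.94 and 8.92 in treated, 9.0 and 8.99 in opposite, and 8.87 and 8.89 in control, so that control was the low pool by 0.05 and 0.11. SDHB was not analysed here.

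Complex III passes electrons from ubiquinol to cytochrome c. All 7 genes had a treated mean below the control mean, where 53.5% of all genes had a difference at or below 0. Their median was -0.084, and 6 of 7 were lower without overlap (85.7%, all genes 40.5%). Only UQCRC1, a core protein of the matrix side, passed the 0.25 rule (14.3%, near the 15.5% of all genes lower). It had 7.94 and 8.09 in treated, 8.26 and 8.22 in opposite, and 8.29 and 8.37 in control. Its treated arrays were the lowest, with -0.32 against control and -0.23 against opposite. CYC1, the cytochrome c1 that hands the electron on, had 7.23 and 7.20 in treated, 7.16 and 7.18 in opposite, and 7.28 and 7.32 in control, with opposite the low pool. UQCRB, a ubiquinone-binding subunit, differed by -0.0005 between treated and control and lay between 10.75 and 10.79 on all 6 arrays. UQCR10 had 10.88 on both treated arrays, 10.97 and 10.93 in opposite, and 10.98 and 10.94 in control. UQCRQ had 9.47 and 9.46 in treated, 9.53 and 9.49 in opposite, and 9.48 and 9.47 in control. Both small subunits were lowest in treated, at -0.080 and -0.013 against control. UQCRFS1 was not analysed here.

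Complex IV, cytochrome c oxidase, reduces oxygen to water. Its 13 detected genes had the lowest median of the 5 complexes for treated minus opposite, -0.15, with 11 lower (84.6%, all genes 33.2%) and 2 higher (15.4%, all genes 38.6%) without overlap and 3 lower by the 0.25 rule (23.1%, all genes 9.73%). For treated minus control the median was -0.12, with 10 lower (76.9%, all genes 40.5%) and 2 higher (15.4%, all genes 34.7%) without overlap and 4 lower by the 0.25 rule (30.8%, all genes 15.5%). The 10 and the 4 include COXFA4L2, which was detected through opposite and control alone, the pools where it is higher. For opposite minus control it was -0.004, with 5 on each side without overlap (38.5%, all genes 42.4% lower and 34% higher) and 0 past the 0.25 rule. Both treated arrays lay below the other 4 in 10 of the 13 (76.9%, all genes 20.5%). These 10, and the 11 lower than opposite without overlap, include COXFA4L2 as well.

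The genes COX6B1, COX6C and COX7A2L had the lowest treated minus opposite differences of the complex, and they passed the 0.25 rule against both other pools. COX6B1, a small subunit on the outer face of the membrane, had 10.07 and 10.09 in treated, 10.35 and 10.33 in opposite, and 10.48 and 10.47 in control. The pools were fully apart, with treated minus control at -0.40 and treated minus opposite at -0.26. COX6C, a small membrane subunit, had 9.93 on both treated arrays, 10.29 and 10.28 in opposite, and 10.23 and 10.26 in control. The treated difference was -0.32 against control and -0.35 against opposite, the lowest treated minus opposite difference of any member. COX7A2L, known for joining complexes III and IV in supercomplexes, had 8.00 and 8.03 in treated, 8.34 and 8.31 in opposite, and 8.27 and 8.33 in control (-0.28 and -0.30). In COX6C and COX7A2L opposite and control lay within 0.04 of each other.

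The bright common subunits differed less. COX7C had 11.25 and 11.26 in treated, 11.34 on both opposite arrays, and 11.36 and 11.34 in control. COX6A1 had 11.23 and 11.25 in treated, 11.43 and 11.47 in opposite, and 11.41 and 11.36 in control. COX4I1, the subunit through which ATP regulates the enzyme, had 10.96 and 10.97 in treated, 11.03 and 11.02 in opposite, and 11.10 and 11.07 in control. All 3 were lowest on the treated arrays, at -0.096, -0.14 and -0.12 against control. COX8A had 10.48 and 10.49 in treated, 10.61 and 10.62 in opposite, and 10.73 and 10.71 in control, with -0.24 against control. COX7A2 had 9.78 and 9.81 in treated, 10.04 and 10.00 in opposite, and 9.79 and 9.78 in control, so that opposite alone was high, by 0.24 over control. COX5A lay between 10.56 and 10.57 on all 6 arrays.

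The tissue and stress isoforms of complex IV were mostly not detected. COX6A2 and COX7A1, the isoforms of heart and skeletal muscle, lay at or next to the lowest value of the table, 2.374, on all arrays. COX6B2, COX7B2 and COX8C, known from testis, lay at that lowest value on all arrays, and COX4I2, an isoform of lung and of low oxygen, between 3.03 and 3.05. COXFA4L2, which low oxygen is known to induce, had 4.91 and 4.94 in treated, 5.13 and 5.12 in opposite, and 5.26 and 5.19 in control. It counted as detected through opposite and control alone, and treated minus control was -0.30. COXFA4, its common partner, ran the other way, with 9.28 and 9.26 in treated, 9.24 and 9.18 in opposite, and 9.07 and 9.06 in control, 0.21 higher in treated than in control and the highest of complex IV.

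**Figure D3:**
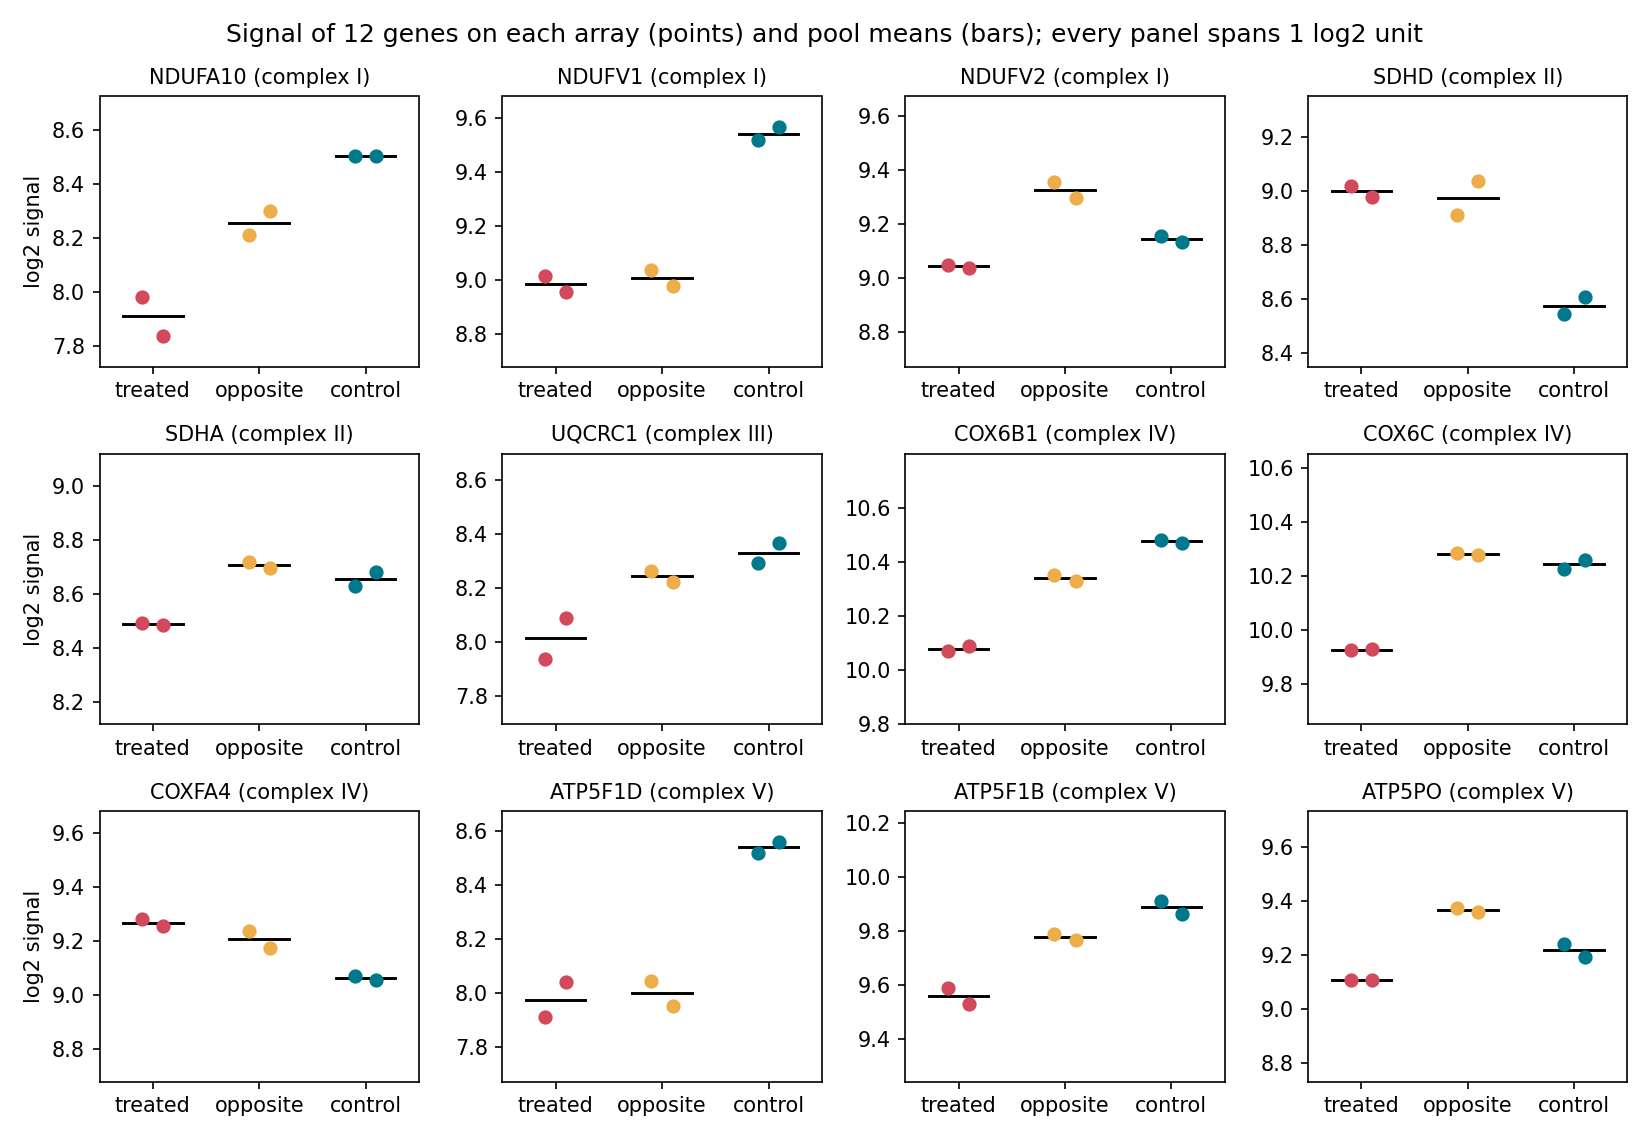
Log2 signal (vertical axis) of 12 genes on the 2 arrays of the treated, opposite and control pools (points) with pool means (bars), each panel spanning 1 log2 unit. NDUFA10, COX6B1 and ATP5F1B fall into 3 separate pools with treated lowest, NDUFV1 and ATP5F1D are high in control only, NDUFV2 and ATP5PO are highest in opposite, and SDHD and COXFA4 are lowest in control.

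Complex V, the ATP synthase, has a catalytic head (F1) in the matrix, turned by a ring of c subunits in the membrane. Its 17 detected genes had medians of -0.11 for treated minus control, -0.084 for treated minus opposite and 0.0055 for opposite minus control, with 4, 1 and 2 genes lower by the 0.25 rule and 0 higher. The first is 23.5%, against 15.5% of all genes, and the others, 5.88% and 11.8%, lie below the 9.73% and 17.8% of all genes. The 5 genes of the head and central stalk were all lower in treated than in control without overlap (100%, all genes 40.5%), with a median of -0.14. The 4 genes of the peripheral stalk that holds the head still had a median of -0.0015. Of these 2 were lower without overlap (50%, all genes 40.5%) and 0 passed the 0.25 rule (all genes 15.5% lower and 14.6% higher).

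ATP5F1D, the delta subunit of the central stalk, had 7.91 and 8.04 in treated, 8.05 and 7.95 in opposite, and 8.52 and 8.56 in control. Treated and opposite overlapped and lay below control, with differences of -0.56 and -0.54, the same order as in NDUFV1. ATP5F1B, the beta subunit that makes ATP, had 9.59 and 9.53 in treated, 9.79 and 9.77 in opposite, and 9.91 and 9.87 in control (treated minus control -0.33). Its 3 pools were fully apart. ATP5F1A, the alpha subunit beside it, had 10.36 and 10.34 in treated, 10.55 and 10.56 in opposite, and 10.48 and 10.50 in control, lowest in treated (-0.14) and highest in opposite. ATP5F1E, the epsilon subunit, had 12.55 and 12.57 in treated, 12.55 and 12.54 in opposite, and 12.66 and 12.69 in control (-0.11).

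The c subunit is made from 3 genes that code for the same mature protein. ATP5MC2 had 10.63 on both treated arrays, 10.70 on both opposite arrays, and 10.89 and 10.90 in control (treated minus control -0.27). ATP5MC1 differed by -0.20 and ATP5MC3 by 0.03, with 10.93 and 10.89 in treated, 10.90 and 10.86 in opposite, and 10.87 and 10.88 in control for ATP5MC3. A second detected probe set of ATP5MC3 gave -0.097, so the direction of ATP5MC3 is not settled. ATP5PO, which ties the peripheral stalk to the head, had 9.11 on both treated arrays, 9.37 and 9.36 in opposite, and 9.24 and 9.20 in control. Treated minus opposite was -0.26, the only difference of the complex past the 0.25 rule in that comparison. ATP5PF, another stalk subunit, had 9.58 on both treated arrays, 9.53 and 9.56 in opposite, and 9.59 and 9.61 in control.

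Of the small membrane subunits, ATP5ME was lower in treated and opposite than in control on its main probe set. It had 10.96 and 10.90 in treated, 10.96 and 10.95 in opposite, and 11.22 and 11.20 in control. A second detected probe set of ATP5ME gave -0.017 for treated minus control, with the arrays overlapping, and 0.156 for treated minus opposite. Its opposite minus control difference was -0.17. The treated minus control difference of ATP5ME is therefore not settled. ATP5MG was high in opposite, with 10.96 and 10.97 in treated, 11.19 on both opposite arrays, and 11.04 and 11.01 in control. ATP5MK had 12.26 and 12.24 in treated, 12.35 and 12.32 in opposite, and 12.22 on both control arrays, lowest in control. ATP5IF1, which inhibits the enzyme when it would run backwards and spend ATP, lay between 8.17 and 8.23 on all arrays, with treated minus control at -0.013. ATP5MF was not detected, at 2.90 to 3.32, through the probe sets that name it alone.

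**Figure D4:**
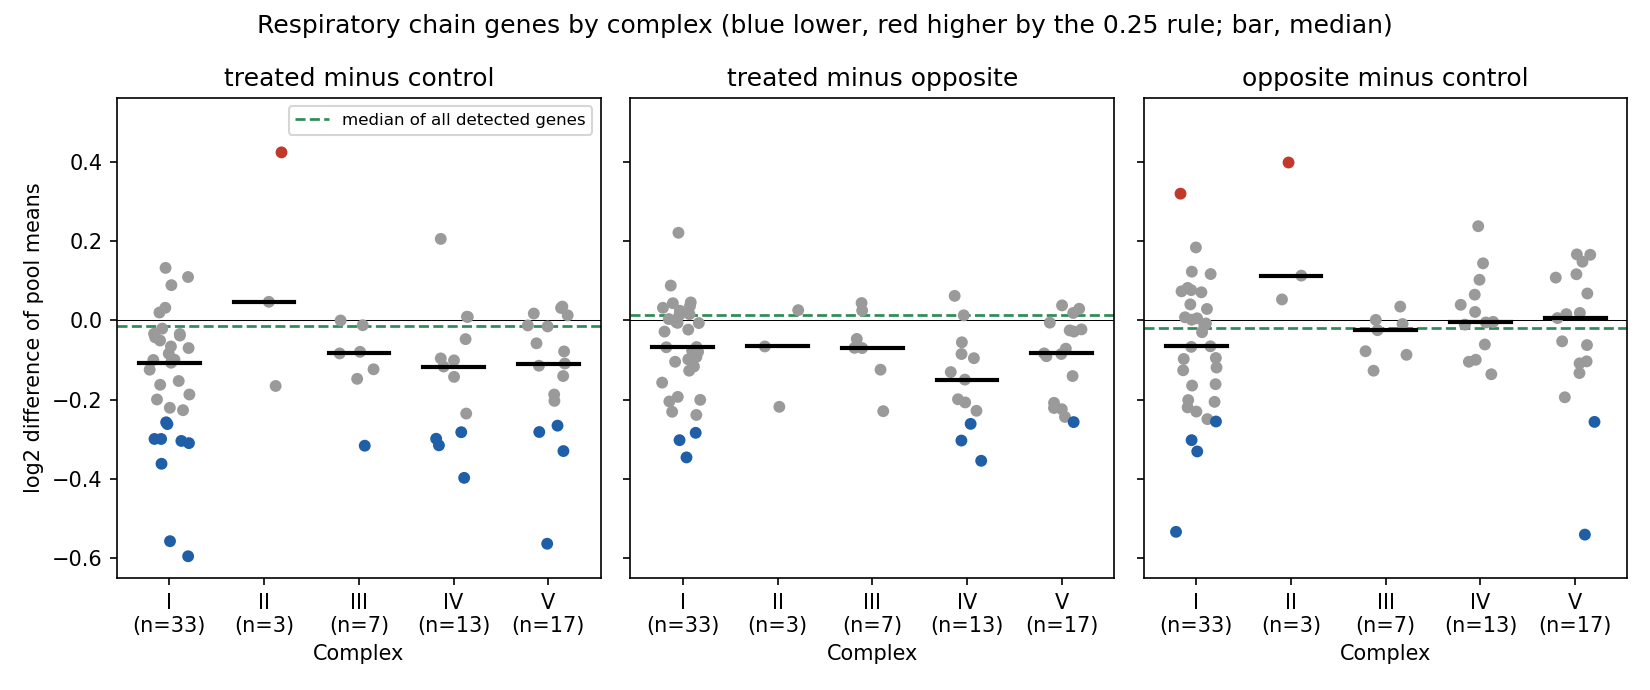
Log2 difference of pool means (vertical axis) of each detected gene (points) by complex for the 3 comparisons, with the median of each complex (bar) and of all detected genes (dashed), blue for lower and red for higher by the 0.25 rule. The treated minus control panel has 18 blue points and 1 red point, SDHD, and the treated minus opposite panel 7 blue points and 0 red ones.

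Other probe sets of the same genes gave a second reading. Among the detected members 20 genes had 32 further detected probe sets, and 26 of these had the sign of the gene's main probe set for treated minus control, 22 for treated minus opposite and 23 for opposite minus control. Their medians were -0.105, -0.144 and 0. In ATP5F1D the second probe set gave -0.35 against control, beside -0.56. In 2 genes the probe sets were more than 0.5 apart. COX6A1 had a dimmer probe set with 7.05 and 7.00 in treated, 7.02 and 7.02 in opposite, and 5.99 and 6.03 in control, 1.02 higher in treated than in control, where its main probe set gave -0.14. This dimmer probe set passed the 2-fold rule for treated minus control and for opposite minus control (1.01). COX4I1 had one with 4.16 and 4.11 in treated, 4.28 and 4.52 in opposite, and 5.07 and 5.06 in control. It reached 5 in control alone, so that its size (-0.93, main probe set -0.12) is read against signals below the detection limit. ATP5IF1 had 2 others, at -0.095 and 0.39. NDUFA10, NDUFV1, SDHD and NDUFS7 had no second detected probe set. Many of these genes have pseudogenes whose RNA an array probe may also read.

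**Figure D5:**
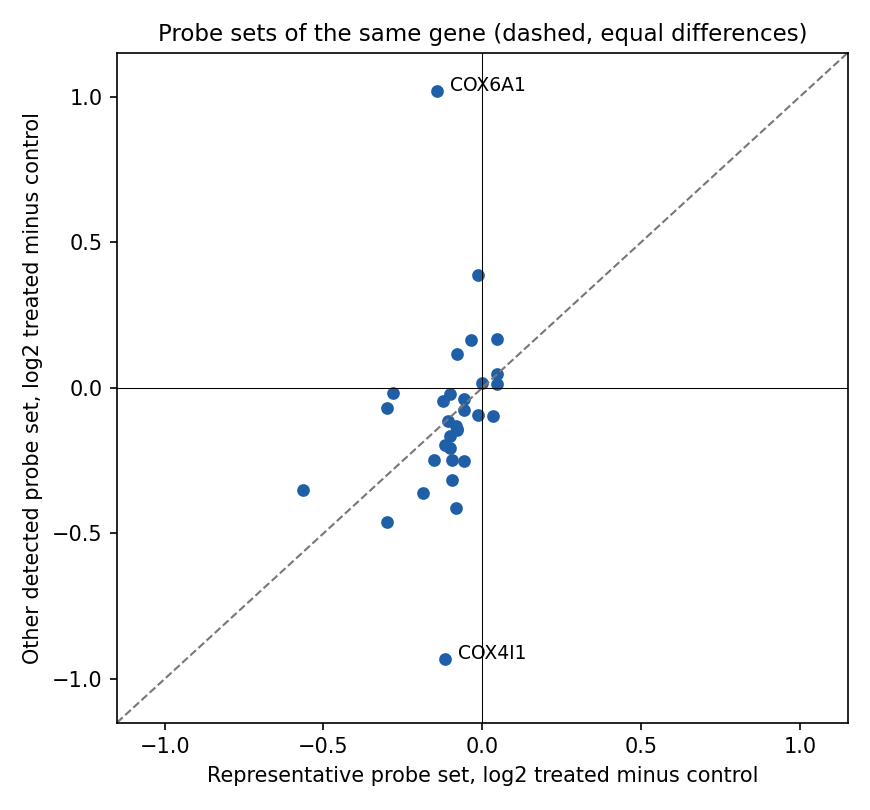
Treated minus control difference of each other detected probe set (vertical axis) against that of the main probe set of the same gene (horizontal axis), both on the log2 scale, with equality dashed. Most of the 32 points lie where both are below 0, and COX6A1 (1.02) and COX4I1 (-0.93, its treated signal below the detection limit of 5) lie far from the line.

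In all, 10 probe sets name a subunit together with another gene and stand outside the counts. NDUFS8, a core iron-sulphur subunit of complex I that shares its probe sets with 2 microRNA genes, gave treated minus control differences of -0.35, 0.03 and -0.29. The probe set of NDUFS5 and RPL10 gave -0.33, that of UQCRH and UQCRHL gave -0.33, the bright one of ATP5MF gave -0.04, and the 2 of NDUFC2 gave 0.02 and -0.07. The one that names SDHA with SDHAP1, SDHAP2 and SDHAP4 gave -0.34, and -0.46 for treated minus opposite. That of NDUFS3 and PTPMT1 gave -0.05, and 0.14 for treated minus opposite, where the main probe set of NDUFS3 gave -0.077.

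Genes that build and serve the chain were read with the same rules. Of 59 assembly factors 44 were detected, with a median treated minus control difference of -0.096 and 12 lower (27.3%, all genes 15.5%) and 0 higher (all genes 14.6%) by the 0.25 rule. UQCC1, which helps to assemble complex III, was the lowest at -0.51. Against opposite the median was -0.018, with 7 lower (15.9%, all genes 9.73%), among them COX20 at -0.74, an assembly factor of COX2, and 2 higher (4.55%, all genes 14.6%). The 73 detected mitochondrial ribosomal protein genes had medians of -0.075 for treated minus control and 0.019 for treated minus opposite, with 13 lower in the first (17.8%, near the 15.5% of all genes) and 4 higher (5.48%, all genes 14.6%). For treated minus control, 18 detected import genes had a median of -0.091, with 3 lower (16.7%, near the 15.5% of all genes) and 0 higher (all genes 14.6%). For treated minus opposite their median was -0.017, with 1 lower (5.56%, all genes 9.73%) and 3 higher (16.7%, near the 14.6% of all genes). The 8 genes of cytochrome c and coenzyme Q had a treated minus control median of -0.057, with 0 past the rule. The 15 genes of the tricarboxylic acid cycle had a treated minus control median of 0.007. Of these 3 were lower (20%, all genes 15.5%) and 1 higher (6.67%, all genes 14.6%), with IDH3G lowest at -0.35 and SUCLA2, a succinyl-CoA ligase subunit, highest at 0.60. The 12 detected regulators of mitochondrial gene expression had 0.033, with 2 lower (16.7%, all genes 15.5%) and 3 higher (25%, all genes 14.6%). The 3 include GABPB1, which was detected through treated alone, with means of 5.08 in treated, 4.89 in opposite and 4.70 in control. For treated minus opposite the regulators had 0.087, with 0 lower (all genes 9.73%) and 2 higher (16.7%, near the 14.6% of all genes).

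Markers of other cells and of low oxygen also differed between these pools. Of 10 detected genes known to respond to low oxygen 8 were lower in treated than in control by the 0.25 rule (80%, all genes 15.5%). None was higher (all genes 14.6%), and the median was -0.35. For opposite minus control 4 were lower (40%, all genes 17.8%), among them ADM at -0.98, and 0 higher (all genes 12.1%). The 8 and the 4 include ANKRD37, which was detected through control alone, with means of 4.21 in treated, 4.77 in opposite and 5.11 in control. For treated minus opposite 3 of 9 detected genes were lower (33.3%, all genes 9.73%) and 0 higher (all genes 14.6%). The median there was -0.22, and ADM was the highest at 0.24. Linear signals were also summed over all measured genes of a list, detected or not, so that genes below 5 add to the sums. For the low-oxygen genes the sum was 13247 to 13253 in treated, 15765 to 15887 in opposite and 15518 to 15636 in control. LDHA, PGK1 and NDRG1 weighed most in it. Of 14 skeletal muscle markers 3 were detected. The sum over all 14 was 256 to 267 in treated, 192 in opposite and 154 in control. MYL11 (1.60) and ACTA1 were higher in treated than in control by the 0.25 rule, ACTA1 with 5.27 in treated and, below the detection limit, 4.11 in opposite and 3.10 in control. Of the others 11 lay below 5 in every pool. Of 10 fibroblast and matrix markers 4 were detected. The sums over all 10 were 818 to 829 in treated, 689 to 705 in opposite and 380 to 418 in control. Of 10 colon epithelium markers 8 were detected, with sums of 35126 to 35389 in treated, 35441 to 35487 in opposite and 32426 to 32482 in control. Of 5 leukocyte markers LYZ alone was detected, and the sums were 3629 to 3678 in treated, 3411 to 3501 in opposite and 3063 to 3173 in control. Of 6 endothelial markers FLT1 alone was detected. The sums over all 6 were 60.8 in treated, 58.1 to 58.6 in opposite and 61.2 to 62.6 in control. None of 3 red blood cell and 4 adipose markers was detected. Cells of the host in these tumours are of mouse, while the array carries human probe sets, and how far mouse RNA was read was not measured. A marker of muscle, fibroblast, vessel, blood or fat that was not detected therefore does not show such cells to be absent, and these sums are not cell amounts. The 5′ control probe sets, which read the far end of the RNA, differed between treated and control by 1.12 for ACTB and -0.46 for GAPDH, while the 3′ sets differed by 0.23 and -0.03. The part of these differences in the result for the respiratory chain genes was not tested. In bulk RNA, fewer cells of a type and less RNA per cell cannot be told apart.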

How the data were processed

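Each of 3 RNA pools was hybridised to 2 arrays of the Affymetrix type HG-U133 Plus 2.0. The authors deposited log2 values, and GCRMA, which corrects background, quantile-normalizes the arrays and summarises probe sets, is credited to the submitters' processing notes with no version. The values' range shows the log2 scale. The number of arrays limits the precision.

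Probe sets were named through the platform annotation and current RefSeq symbols (41097 named 1 gene, 1801 several and 11777 none, and 41043 of those with 1 gene matched by Entrez identifier). Pool means and the size rules were computed over all 19775 genes, with medians over those at or above 5. The rules were tested on simulated data. The members and lists were chosen with earlier results of these data known.

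The genes named were, per complex, the highest and lowest difference of each comparison and the 3 brightest, all members past the 2-fold rule, core subunits, complex IV isoforms with their partners, and ATP5IF1. Others named (NDUFA1, NDUFA2, NDUFA11, NDUFA12, NDUFA13, NDUFB1, NDUFB10, NDUFB11, COX5A, COX7A2L, ATP5MC1, ATP5MC2, ATP5ME, ATP5MF and the genes of other lists) were chosen after their values were seen.

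Alternatives were other floors (4, 6 and 8), other minimum differences (0.2, 0.3 and 0.6), no required agreement of array pairs, other scalings, linear averages, other probe set choices, other placing of COXFA4, COXFA4L2 and isoforms, leaving out each array, and limma at an adjusted p under 0.05 with and without the replicate number as a block. The floor of 8 and leaving out COXFA4 and COXFA4L2 were added after seeing the data. Replicate-1 deviations correlated between pools by 0.024, 0.0082 and 0.0058, so the numbers were not taken to pair arrays. Python 3.11.15, numpy 2.4.6, pandas 2.3.3, matplotlib 3.10.9, R 4.3.3 and limma 3.58.1 were used.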

Additional observations from a re-analysis of the deposited data

How the results depend on the processing

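The treated pool's member medians stayed below 0 under all alternatives run. For treated minus control (-0.107 as deposited) they were -0.098 with no floor, -0.097 with arrays set to the same gene median, -0.12 with equal spike-in medians, -0.12 with quantile normalization, and -0.107 to -0.1005 leaving out each array. For treated minus opposite (-0.0795) they were -0.119 with equal gene medians, -0.269 with equal spike-in medians, -0.1075 without probe sets ending _x_at or _s_at, and -0.08 to -0.071 leaving out each array. The opposite minus control median (-0.0095) had no stable side, at 0.04 with equal gene medians, 0.166 with equal spike-in medians, 0.0035 without _x_at and _s_at sets, -0.026 with quantile normalization, and -0.02 to -0.0095 leaving out each array. Counts past the 0.25 rule for treated minus control (19) were 11 at a minimum of 0.3 and 16 to 20 leaving out each array. For treated minus opposite (7) they were 20 at 0.2, 4 at 0.3, 15 with equal gene medians, 44 with equal spike-in medians and 7 to 10 leaving out each array. For opposite minus control (8) they were 14 at 0.2, 18 with equal spike-in medians, 3 without _x_at and _s_at sets, and 6 to 12 leaving out each array. Except with equal spike-in medians, whose shares of all genes are given above, the share of all genes under these settings was not computed. The counts therefore show how rule and scale move the calls and are not results about the members. For treated minus opposite the median of all genes moved too, to -0.0265 with equal gene medians and -0.179 with equal spike-in medians. No member passed the 2-fold rule leaving out any array (0 in each comparison). limma, which compares pools against array error and not conditions, called 46, 38 and 39 members for treated minus control, treated minus opposite and opposite minus control (63.0%, 52.1% and 53.4%), and 49.8%, 44.0% and 49.0% of all genes. With the replicate number as a block it called 46, 38 and 37, and the numbers do not pair the arrays.

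Of the 15 complex medians, 12 were below 0 (11 to 13 leaving out each array). Changes of side were in opposite minus control except for complex II, whose treated minus opposite median was 0.026 with the mean of probe sets and 0.097 without _x_at and _s_at sets. For opposite minus control, complex I went to 0.11 with equal spike-in medians and 0.0045 without _x_at and _s_at sets, and complex III to 0.0245 with equal gene and 0.15 with equal spike-in medians. Complex IV went to 0.0455 with equal gene medians, 0.171 with equal spike-in medians, 0.0085 with a floor of 6 or without isoforms, 0.021 with the mean of probe sets, 0.03 without _x_at and _s_at sets, 0.0065 without opposite replicate 1 and 0.008 without control replicate 2 (-0.0055 to 0.008 leaving out each array). Complex V went to -0.00063 with quantile normalization, -0.009 without opposite replicate 1 and -0.003 without control replicate 1 (-0.009 to 0.014). Of 357 alternative values of the 19 named differences past the 0.25 rule 356 kept their sign. Many of these values could not change sign, so the count does not measure robustness. Other floors, minimum differences and left-out genes do not alter a difference. The rule already puts every array pair on the same side, so leaving out an array cannot reverse it. Equal gene or spike-in medians moved differences by less than 0.25. Quantile normalization and other probe set choices could reverse a sign. The exception was NDUFS7, treated minus control, at 0.057 without _x_at and _s_at sets, when its remaining probe set lay below 5. The causes were not tested. With 1 pool a group, differences between animals cannot be told apart from those between conditions.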

Other observations

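The subunits encoded in mitochondrial DNA were read by 10 probe sets of 7 genes and lay outside the comparisons above. Their median was 0.081 for treated minus control, 0.053 for treated minus opposite and 0.038 for opposite minus control, and 2, 4 and 4 of the 10 were below 0. COX1, the catalytic subunit of complex IV, had 13.99 and 14.00 in treated, 14.09 and 14.10 in opposite, and 14.05 and 14.03 in control. COX2, which takes the electron from cytochrome c, had 14.07 and 14.04 in treated, 13.89 and 13.88 in opposite, and 13.94 and 13.93 in control on its first probe set, higher in treated by 0.12 against control and 0.17 against opposite. ND4, a proton-pumping subunit of complex I, was highest in treated on its brighter probe set, at 13.75 and 13.74, against 13.60 and 13.61 in opposite and 13.54 and 13.53 in control. ND6, the one subunit coded on the light strand, was the lowest, with 7.66 and 7.55 in treated, 7.79 and 7.93 in opposite, and 7.94 and 8.01 in control (-0.36 for treated minus control). Whether the nuclear and mitochondrial subunits differ in their response was not tested.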
